A study of Homo sapiens with 6 samples.

Results

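The cyclins and kinases that take a cell from G1 into S phase were followed at the RNA level in MV4-11 cells, an established human acute myeloid leukemia (AML) line, with and without WNK463, a compound that blocks the WNK family of kinases. The genes were the D-type cyclins *CCND1*, *CCND2* and *CCND3* with the kinase *CDK4*, the E-type cyclins *CCNE1* and *CCNE2* with the kinase *CDK2*, and *SKP2* with its accessory genes *CKS1B* and *CKS2*. They were taken by symbol, and each of the 10 had 1 row in the table of 20348 genes. The groups were 3 Ctrl samples, labelled untreated and described as a blank control, and 3 that received WNK463 at 1 μM, and per the series text each was kept for 48 h. All 6 were the same cell line, and the drug was given at a single dose and time. Whether the control received the drug's solvent, and whether the 3 samples of a group came from separate cultures, is not given in the sources used here, so p-values measure the spread between these samples, which may be technical.

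In G1, mitogen signals raise the D-type cyclins, which bind CDK4 or CDK6 and start the phosphorylation of the RB protein. This frees E2F transcription factors, whose targets include the E-type cyclins, and cyclin E with CDK2 completes RB phosphorylation and promotes origin firing. SKP2 is the substrate-recognition subunit of an SCF ubiquitin ligase that, with CKS1 as cofactor, marks the CDK inhibitor p27 (*CDKN1B*) for destruction. FLT3 signalling, which MV4-11 cells depend on through an activated *FLT3* allele, is one of the known inputs to D-type cyclin expression in AML.

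The deposited estimated counts summed to between 14915745 and 17411780 per sample. Levels within a gene are given as counts per 1000000 of the normalized library (CPM, TMM scaling), and levels between genes as transcripts per 1000000 (TPM), which account for length. Differences were tested with edgeR's quasi-likelihood test over 11973 genes, and a gene passed at a Benjamini-Hochberg adjusted p below 0.05. Of 10 AML and myeloid markers, 9 were tested, and *CD34* was near 0, with a mean of 0.0203 CPM in Ctrl and 0.0395 CPM with WNK463. By edgeR, 5 of them were higher, with log2 fold changes of 1.25 for *ITGAM*, 1.20 for *PTPRC*, 0.72 for *HOXA9*, 0.47 for *KIT* and 0.33 for *MEIS1*. Another 3 were lower, at -2.50 for *MPO*, which went from 7.47 to 1.31 CPM, -0.38 for *CD33* and -0.20 for *FLT3*, and *SPI1* did not pass. The summed level of the 10 was between 896 and 963 CPM in Ctrl and between 1043 and 1070 CPM with WNK463, and the part of these marker shifts in the results below was not tested. Of 12 markers of other cell types, 10 had a mean below 1 CPM, and the summed level of all 12 rose from between 102 and 115 CPM to between 177 and 189 CPM, most of it *PECAM1*, which monocytic cells also carry.

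After WNK463 treatment, 7 of the 10 genes were lower, 2 were higher and 1 did not pass. The lower genes were *CDK2*, *CCNE2*, *CDK4*, *CCND1*, *CCNE1*, *SKP2* and *CKS1B*, the higher ones were *CCND3* and *CCND2*, and *CKS2* was the gene that did not pass. The background was high, since 70.8% of all tested genes passed, 35.3% lower and 35.5% higher. The median log2 fold change was -0.77 over the 10 genes and 0.02 over all tested genes. In 9 of the 10 genes the 3 WNK463 values lay wholly on one side of the 3 Ctrl values, which held for 73.5% of all tested genes. When the log2 fold change also had to reach 1 in either direction, 2 of the 10 were lower and 0 higher, against 5.55% lower and 9.62% higher among all tested genes. With scaling by total counts the median log2 fold change of all genes moved up by 0.15 and the share of higher genes among those that passed went from 50.2% to 63.9%, yet the same count of 7 lower and 2 higher was obtained for the 10 genes. In bulk RNA, fewer cells in S phase and less of a transcript per cell cannot be told apart. All 12 S phase markers were lower, their summed level going from between 3213 and 3218 CPM to between 1146 and 1179 CPM. Of 12 G2/M markers, 10 were lower, 1 was higher and 1 did not pass. The sum of these 12 went from between 3202 and 3522 CPM to between 2443 and 2569 CPM. The higher one was *CENPF*, from 351 ± 54.7 to 494 ± 20.7 CPM (SD, n = 3 each), or 0.49 in log2 (edgeR adjusted p = 2.1e-05). The part of these shifts in the changes below was not tested.

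**Figure D1:**
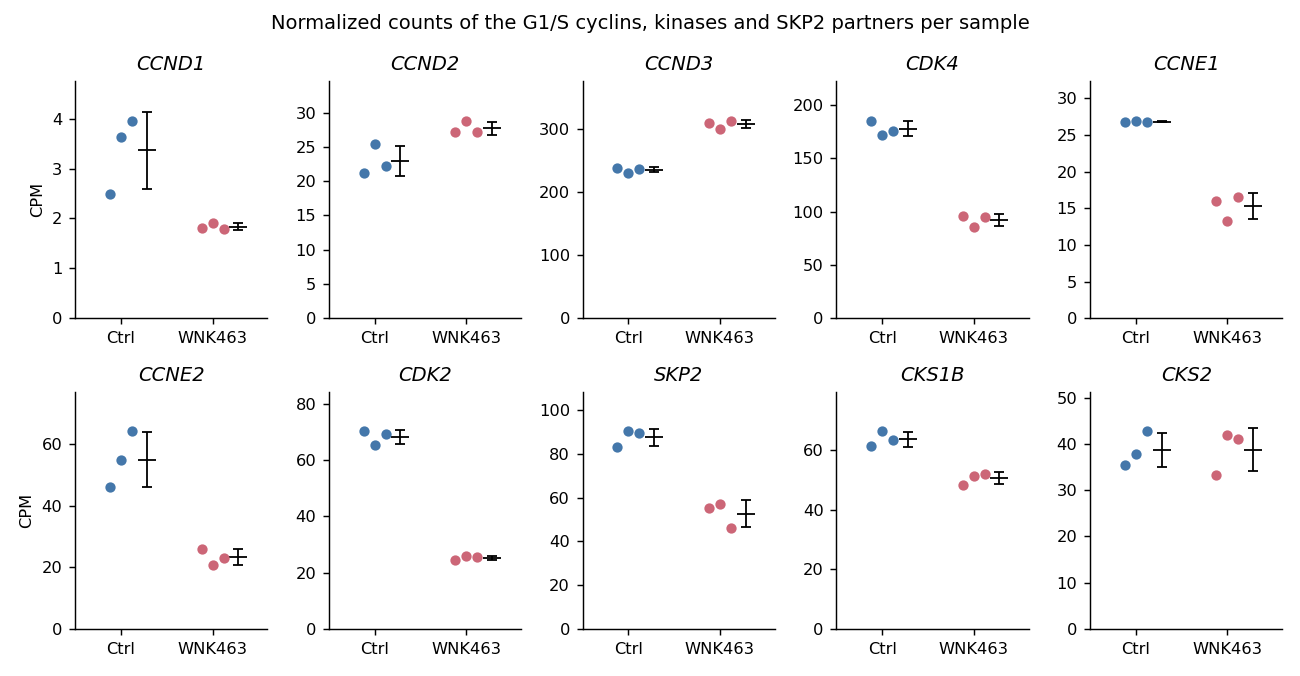
Normalized counts (CPM, linear axis from 0) of the 10 genes in each of 3 Ctrl (blue) and 3 WNK463 (red) samples, with the mean and SD in black beside them. The groups do not overlap in 9 panels, and in the *CKS2* panel they do.

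The D-type cyclins did not change in one direction. *CCND3* (ENSG00000112576, GRCh38 chromosome 6 from 41934933 to 42050357, minus strand) was the predominant one. Its level was 238, 231 and 237 CPM in the Ctrl samples and 309, 300.1 and 313 CPM in the WNK463 samples. All 3 treated samples were above all 3 controls, and the values were tight within each group. By edgeR, the log2 fold change reached 0.39 ± 0.04 (SE, adjusted p = 4.6e-07), a rise of 30.7%.

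*CCND2* (ENSG00000118971, chromosome 12 from 4273772 to 4305350, plus strand) had 21.2, 25.4 and 22.1 CPM in Ctrl and 27.1, 28.8 and 27.2 CPM with WNK463. The groups were separate by a small gap, with a log2 fold change of 0.28 ± 0.09 (SE, edgeR adjusted p = 0.0079). A second annotated gene on the same strand, *AC008012.1*, spans 4273762 to 4405490 and shares 989 of the 7157 exonic bases of *CCND2*. *AC008012.1* had 16.1 ± 1.12 CPM in Ctrl and 5.21 ± 0.62 CPM with WNK463 (SD, n = 3 each), which edgeR gave as -1.63 in log2 (adjusted p = 2.8e-09). When the counts of both genes were summed, a check chosen after seeing the data, the level went from 39.1 ± 3.20 to 32.9 ± 1.27 CPM (SD, n = 3 each), which edgeR gave as -0.24 in log2 (adjusted p = 0.0078). An antisense transcript, *CCND2-AS1*, covers 126 exonic bases and had no row in the table. The sum also holds reads from exons that *AC008012.1* does not share with *CCND2*, and how reads of the shared bases were assigned was not tested.

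*CCND1* (ENSG00000110092, chromosome 11 from 69641087 to 69654474, plus strand) was the D-type cyclin with the least RNA. It had 41, 53 and 65 counts in Ctrl and 30, 33 and 28 counts with WNK463, or 2.50, 3.64 and 3.96 CPM against 1.81, 1.92 and 1.79 CPM. The treated samples were lower, but the controls spread widely, and the log2 fold change of -0.87 had a standard error of 0.26 (adjusted p = 0.0057 from edgeR). The call was lost with limma on log2(TPM + 0.1), at an adjusted p of 0.057. *LTO1*, on the opposite strand, overlaps 497 exonic bases of *CCND1* and had more RNA, with 14.1 TPM in Ctrl against 1.48 TPM for *CCND1*. *LTO1* was also lower in CPM, at 15.3 ± 1.30 in Ctrl and 11.9 ± 0.235 with WNK463 (SD, n = 3 each). For this edgeR gave -0.36 in log2 (adjusted p = 0.0050), while its mean TPM with WNK463 was 15.1. The part of shared reads in the *CCND1* value was not tested. Reads of opposite strands cannot be told apart unless strand was used in counting, which the sources used here do not state.

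Per length, *CCND3* made up 96.5% ± 0.424 of the summed D-type cyclin TPM in Ctrl and 97.0% ± 0.147 with WNK463 (SD, n = 3 each). *CCND2* made up 2.85% ± 0.320 and 2.68% ± 0.132, and *CCND1* 0.639% ± 0.147 and 0.273% ± 0.0149. The summed D-type cyclin level was 231 ± 2.80 TPM in Ctrl and 337 ± 3.09 TPM with WNK463 (SD, n = 3 each). TPM values carry no TMM scaling, and on log2(TPM + 1) the median change over all tested genes was 0.16. Of these 3 shares, only that of *CCND1* had groups that did not overlap (exact two-sided permutation p = 0.10, adjusted p = 0.20 over 6 shares compared). That is the smallest p that 3 samples against 3 allow, so no share could pass. With CPM in place of TPM the shares of *CCND3*, *CCND2* and *CCND1* changed by 1.29, -0.547 and -0.741 percentage points, against 0.540, -0.175 and -0.366 with TPM.

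The kinases that the D-type cyclins activate changed in opposite directions. *CDK4* (ENSG00000135446, chromosome 12 from 57747727 to 57756013, minus strand) had 185, 172 and 176 CPM in Ctrl and 95.7, 85.3 and 95.3 CPM with WNK463. Every treated sample was far below every control, and edgeR gave a log2 fold change of -0.95 ± 0.06 (SE, adjusted p = 7.4e-11), a level 48.2% lower. *CDK6*, the other kinase of D-type cyclins, had 446, 485 and 527 CPM in Ctrl and 595, 602 and 593 CPM with WNK463. It was higher in all 3 treated samples, with a log2 fold change of 0.30 ± 0.05 (SE, edgeR adjusted p = 7.8e-05). On the TPM scale *CDK4* was the more abundant kinase in Ctrl, at 238 ± 7.68 against 77.7 ± 7.10 TPM for *CDK6*, and with WNK463 the values were 133 ± 10.3 and 109 ± 1.57 TPM (SD, n = 3 each). The *CDK4* share of their sum was 77.8%, 74.9% and 73.4% in the Ctrl samples and 56.5%, 52.3% and 55.9% in the WNK463 samples. The mean share was 20.5 percentage points lower with WNK463 (means 75.4% and 54.9%), and the groups did not overlap on the TPM scale (exact two-sided permutation p = 0.10, adjusted p = 0.20 over the 6 shares). With CPM in place of TPM the change in this share was -13.5 percentage points. The summed level of both kinases was 316 ± 3.25 TPM in Ctrl and 242 ± 8.99 TPM with WNK463.

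*TSPAN31*, on the opposite strand, overlaps 1369 of the 3168 exonic bases of *CDK4*. It had 20.2 ± 0.505 CPM in Ctrl and 20.5 ± 2.22 CPM with WNK463 (SD, n = 3 each), which edgeR gave as 0.02 in log2 (adjusted p = 0.84). The 250 bases before the RefSeq start of *CDK4* are shown because they hold 3 copies of the E-box CACGTG, the motif bound by MYC and MAX. They lie at chr12:57752311-57752560 on the minus strand of GRCh38.p14, with the E-boxes in capitals, beginning 216, 196 and 101 bases before the start.
CDK4: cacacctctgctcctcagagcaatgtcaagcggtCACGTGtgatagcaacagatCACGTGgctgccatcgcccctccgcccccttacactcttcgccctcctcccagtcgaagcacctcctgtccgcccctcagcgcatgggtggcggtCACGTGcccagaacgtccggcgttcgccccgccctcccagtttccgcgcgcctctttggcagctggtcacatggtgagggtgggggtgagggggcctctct
Searched on both strands, CACGTG was in 6.34% of the 35116 RefSeq promoter windows of the same 250 bases. Counted by gene, it was in 1 of the 6 members that had a window. *MYC* itself had 680.3 ± 21.4 CPM in Ctrl and 566 ± 29.4 CPM with WNK463 (SD, n = 3 each), which edgeR gave as -0.26 in log2 (adjusted p = 8.4e-05). On the TPM scale *MYC* had 557 ± 22.8 in Ctrl and 534 ± 23.8 with WNK463, and the groups overlapped. *MYC* was named here after its value was seen. A motif match is a description and not evidence of binding.

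**Figure D2:**
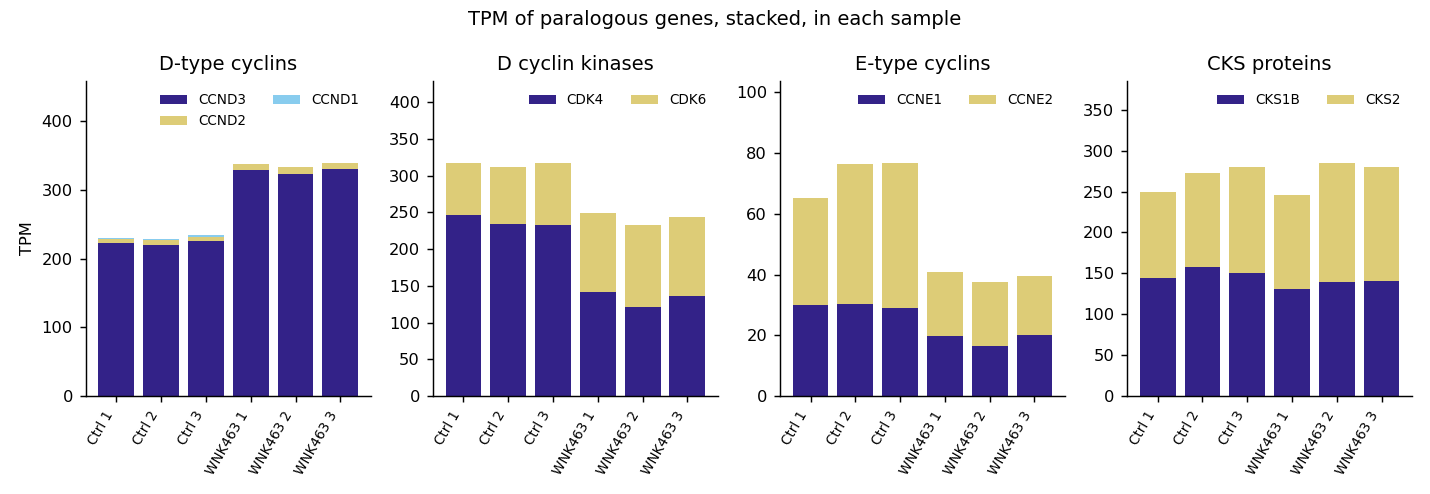
TPM (linear axis from 0) of paralogous genes stacked in each of the 3 Ctrl and 3 WNK463 samples, in 4 panels. *CCND3* fills nearly all of the D-type cyclin bars, *CDK4* shrinks beside *CDK6*, both E-type cyclins are lower, and the summed CKS levels of the groups overlap.

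Both E-type cyclins and their kinase were lower, and *CDK2* changed the most of the 10 genes. *CDK2* (ENSG00000123374, chromosome 12 from 55966769 to 55972784, plus strand) had 70.2, 65.3 and 69.1 CPM in Ctrl and 24.5, 25.8 and 25.6 CPM with WNK463. The samples of a group differed little and the groups were far apart. By edgeR, the log2 fold change reached -1.43 ± 0.07 (SE, adjusted p = 2.5e-12), a level 62.9% lower, and it ranked 165 by p among all tested genes. *PMEL*, which overlaps 89 exonic bases of *CDK2* on the opposite strand, had 12 to 34 counts per sample. *AC025162.1*, an antisense transcript over 565 exonic bases of *CDK2*, had no row in the table.

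*CCNE2* (ENSG00000175305, chromosome 8 from 94879770 to 94896678, minus strand) encodes cyclin E2. It had 46.2, 54.7 and 64.2 CPM in Ctrl and 26.0, 20.9 and 23.0 CPM with WNK463. The controls spread more than for *CDK2*, but the lowest was well above the highest treated sample. By edgeR, the log2 fold change reached -1.24 ± 0.11 (SE, adjusted p = 8.7e-09), a level 57.7% lower. *INTS8*, a subunit gene of the Integrator complex on the opposite strand, shares 1629 of the 4397 exonic bases of *CCNE2* and was also lower, at 134 ± 4.34 CPM in Ctrl and 71.7 ± 4.47 CPM with WNK463 (SD, n = 3 each), which edgeR gave as -0.90 in log2 (adjusted p = 1.8e-10). The part of shared reads in the *CCNE2* value was not tested.

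*CCNE1* (ENSG00000105173, chromosome 19 from 29811898 to 29824308, plus strand), which encodes cyclin E1, had 26.8, 27.0 and 26.7 CPM in Ctrl and 16.0, 13.3 and 16.6 CPM with WNK463. The controls were nearly identical and all 3 treated samples were below them. By edgeR, the log2 fold change reached -0.81 ± 0.09 (SE, adjusted p = 4.4e-07), a level 43.1% lower. No annotated gene overlapped *CCNE1*. Per length, *CCNE1* made up 41.0% ± 4.29 of the summed E-type cyclin TPM in Ctrl and 47.9% ± 3.47 with WNK463 (SD, n = 3 each), with overlapping samples (exact two-sided permutation p = 0.20, adjusted p = 0.24 over the 6 shares). The summed level went from 72.8 ± 6.63 to 39.4 ± 1.69 TPM.

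*SKP2* (ENSG00000145604, chromosome 5 from 36151989 to 36184319, plus strand) had 83.2, 90.3 and 89.3 CPM in Ctrl and 55.3, 57.0 and 45.9 CPM with WNK463. All treated samples were below all controls, and WNK463 replicate 3 was the lowest. By edgeR, the log2 fold change reached -0.73 ± 0.07 (SE, adjusted p = 6.3e-08), a level 39.7% lower.

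The 2 CKS genes encode small proteins that bind CDKs, and CKS1, from *CKS1B*, is the one that SKP2 uses to recognise p27. *CKS1B* (ENSG00000173207, chromosome 1 from 154974653 to 154979249, plus strand) had 61.4, 66.3 and 63.4 CPM in Ctrl and 48.2, 51.4 and 52.0 CPM with WNK463. The groups did not overlap, but the change was modest, with a log2 fold change of -0.33 ± 0.06 (SE, edgeR adjusted p = 9.8e-05), a level 20.6% lower. It was closer to 0 with scaling by total counts, at -0.18 (adjusted p = 0.015 from edgeR). With limma on log2(TPM + 1) it was -0.14, and the limma adjusted p was 0.039, or 0.0498 without a filter, just under the limit. GENCODE 29 names 6 pseudogenes after *CKS1B*, none of which had a row in the table, so reads shared with them could have been counted to *CKS1B*. The same limit holds for *CCND3* with 2 named pseudogenes and for *CCND2* and *CDK4* with 1 each, also without rows. *CKS2* (ENSG00000123975, chromosome 9 from 89311198 to 89316703, plus strand) had 35.4, 37.8 and 42.8 CPM in Ctrl and 33.4, 41.9 and 41.0 CPM with WNK463. The groups overlapped, with WNK463 replicate 1 below every control and the other treated samples within the range of the controls. The log2 fold change was 0.0036 with a 95% interval from -0.18 to 0.19 (adjusted p = 0.97 from edgeR). The *CKS1B* share of the summed CKS level was 56.5% ± 2.34 in Ctrl and 50.7% ± 2.17 with WNK463 (SD, n = 3 each), with no overlap between the groups (exact two-sided permutation p = 0.10, adjusted p = 0.20 over the 6 shares).

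The promoters of the CKS pair are shown because they hold the same 2 motifs while *CKS1B* passed the test and *CKS2* did not. They are the CCAAT box, which NF-Y binds, and TTTGAA, the cell cycle homology region (CHR) through which MuvB complexes bind. Both motifs, searched on both strands, are in capitals in the 250 bases before the RefSeq start, at chr1:154974431-154974680 and chr9:89310945-89311194, both on the plus strand of GRCh38.p14.
CKS1B: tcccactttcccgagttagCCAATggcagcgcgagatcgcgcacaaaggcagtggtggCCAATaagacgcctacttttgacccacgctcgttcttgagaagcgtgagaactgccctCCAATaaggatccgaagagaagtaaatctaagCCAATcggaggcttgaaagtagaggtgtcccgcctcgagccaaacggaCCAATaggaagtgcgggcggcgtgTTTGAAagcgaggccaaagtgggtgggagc
CKS2: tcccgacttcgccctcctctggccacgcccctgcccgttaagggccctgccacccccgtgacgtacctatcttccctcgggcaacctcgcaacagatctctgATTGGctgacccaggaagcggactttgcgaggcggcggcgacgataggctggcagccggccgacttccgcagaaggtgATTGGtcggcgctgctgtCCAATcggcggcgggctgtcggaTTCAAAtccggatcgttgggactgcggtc
The TTTGAA copy began 30 bases before the start in *CKS1B* and 29 bases before it in *CKS2*, on the opposite strand in the latter. *CKS1B* had 5 CCAAT copies and *CKS2* had 3. Among the 35116 RefSeq windows of that length, 32.0% held a CCAAT and 13.3% a TTTGAA. Of the 6 members with a window, 3 held a CCAAT and 2 a TTTGAA. These 6 members had 8 windows, 3 of them for *CCND3*. A member was counted if any of its windows held the motif, whereas the shares of all windows are per window. E2F motifs, taken as TTTCCCGC, TTTGGCGC, TTTCGCGC or TTTGCCGC on either strand, were found in 0 of the 6 and in 2.79% of all windows, which says only that these letters are not in these 250 bases.

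**Figure D3:**
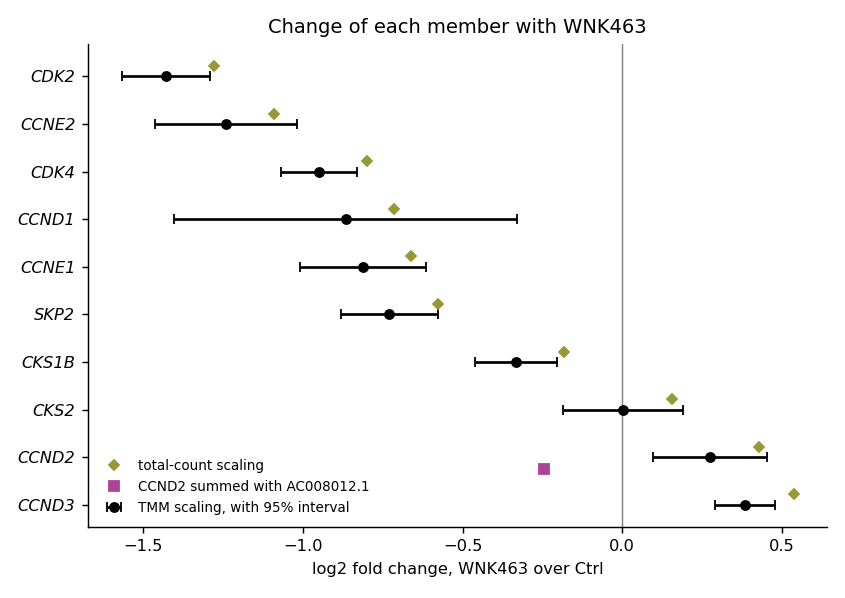
Log2 fold change of each gene (WNK463 over Ctrl) with TMM scaling and its 95% interval (circles), with total-count scaling (diamonds), and for *CCND2* with the counts of the overlapping *AC008012.1* added (square). *CDK2* at -1.43 is the lowest and *CCND3* at 0.39 the highest, and the *CCND2* square lies on the other side of 0 from its circle.

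Partners were then set against each other within each sample, as the log2 ratio of their CPM + 1, which removes library scaling apart from the added 1. Over 5 pairs, 4 had groups that did not overlap. For single genes this held for 73.5% of all tested genes, and the share among other pairs of genes was not computed. The *CDK2* to *CDK4* log2 ratio went from -1.37 ± 0.0309 to -1.82 ± 0.121 (SD, n = 3 each). The *SKP2* to *CKS1B* log2 ratio went from 0.454 ± 0.0308 to 0.0547 ± 0.202. The *CKS1B* to *CKS2* log2 ratio went from 0.709 ± 0.132 to 0.380 ± 0.120. The *CCNE1* to *CCNE2* log2 ratio went from -0.998 ± 0.236 to -0.578 ± 0.116. Each of these 4 reached the smallest exact two-sided permutation p possible with 3 samples against 3, 0.10, which was 0.125 after adjustment over the 5 pairs, so none could pass. The *CCND2* to *CCND3* log2 ratio was -3.31 ± 0.155 in Ctrl and -3.43 ± 0.0784 with WNK463, and its groups overlapped (exact permutation p = 0.30).

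**Figure D4:**
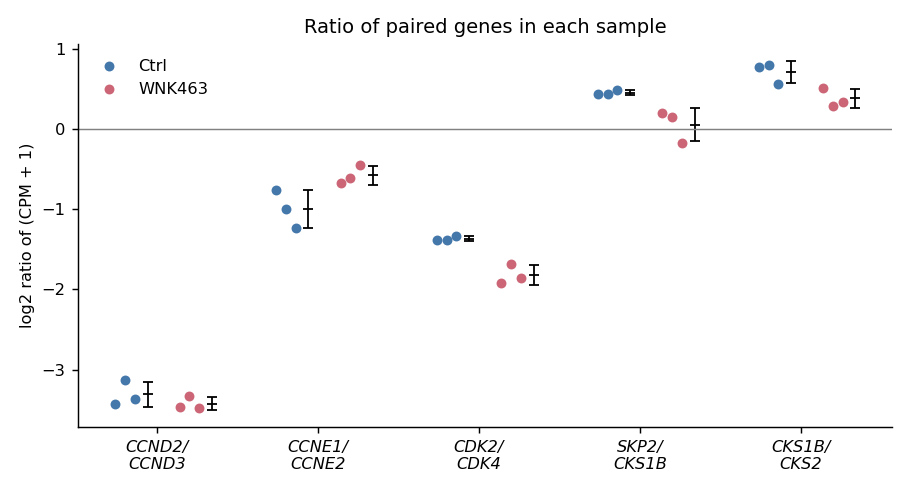
Log2 ratio of (CPM + 1) for 5 pairs of genes in each Ctrl (blue) and WNK463 (red) sample, with the mean and SD in black. The groups are separate for *CCNE1*/*CCNE2*, *CDK2*/*CDK4*, *SKP2*/*CKS1B* and *CKS1B*/*CKS2*, and overlap for *CCND2*/*CCND3*.

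The order of the levels on the TPM scale changed between the groups. In Ctrl it ran *CDK4* (238 TPM), *CCND3* (223), *CKS1B* (151), *CKS2* (117), *SKP2* (63.3), *CDK2* (58.3), *CCNE2* (43.2), *CCNE1* (29.7), *CCND2* (6.58) and *CCND1* (1.48), and neighbours did not overlap between samples, though *SKP2* and *CDK2* came within 0.1 TPM of each other. With WNK463 *CCND3* stood alone at 327 TPM. *CKS1B* (137 TPM), *CKS2* (134 TPM) and *CDK4* (133 TPM) followed with overlapping samples, and then *SKP2* at 42.3 TPM and *CDK2* at 23.9 TPM. *CCNE2* (20.5 TPM) and *CCNE1* (18.9 TPM) also overlapped, and *CCND2* (9.04 TPM) and *CCND1* (0.922 TPM) remained last.

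The other genes of the G1/S pathway were taken from 7 lists with 54 genes, all of which were tested. Of these, 24 were lower and 18 higher, and 12 did not pass. Their median log2 fold change was -0.11. Among all tested genes 35.3% were lower and 35.5% higher, and these shares are the background for the counts of each list below. Of 9 other cyclins, kinases and phosphatases, 5 were lower and 2 higher. *CDC25A*, the phosphatase that activates CDK2, went from 80.5 ± 1.62 to 37.4 ± 2.22 CPM (SD, n = 3 each), or -1.11 in log2. *WEE1*, *CDC25C* and *CCNA2*, which act at later steps or, for cyclin A2, from S phase onward, had -0.66, -0.67 and -0.31. In the CDK-activating kinase, which phosphorylates the T-loop of the CDKs, *MNAT1* was higher with a log2 fold change of 0.25, its samples overlapped between the groups, and *CDK7* and *CCNH* did not pass, at 0.15 and 0.07.

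Among 13 genes of the SCF ligase and of cyclin and CDK inhibitor turnover, 5 were lower and 2 higher. *CUL1*, the scaffold of the SKP2 ligase, had 78.1, 80.7 and 86.2 CPM in Ctrl and 52.3, 50.9 and 48.2 CPM with WNK463, a log2 fold change of -0.69. *SKP1*, the adaptor that links SKP2 to CUL1, had -0.40 and was named after its value was seen. *DTL*, the substrate receptor of another cullin ligase that acts in S phase, had -1.61, and *FBXO5*, an inhibitor of the anaphase-promoting complex, had -0.88. *GSK3B*, a kinase that phosphorylates cyclin D1 for turnover, had 0.47.

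Among 8 CDK inhibitors, 6 were higher and 1 was lower. *CDKN1B*, which encodes p27, the substrate of the SKP2 ligase, had 80.8, 89.2 and 90.1 CPM in Ctrl and 198, 194 and 194 CPM with WNK463. All 3 treated samples were far above the controls, with a log2 fold change of 1.17 ± 0.05 (SE, edgeR adjusted p = 2.4e-12). *CDKN1A* (p21) went from 163 ± 2.62 to 214 ± 6.10 CPM (SD, n = 3 each), or 0.39 in log2. *CDKN2B* (p15), an inhibitor of CDK4 and CDK6, went from 1.15 ± 0.253 to 3.69 ± 0.487 CPM. *CDKN1C* (p57) had 3, 3 and 5 counts in Ctrl and 72, 58 and 64 counts with WNK463, and with so few control counts no fold is given. *CDKN2A* was the lower one, at -0.31.

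The RB family split, with *RBL1* (p107) lower at a log2 fold change of -1.36 and *RB1* and *RBL2* (p130) higher at 0.60 and 0.16. Of 10 E2F and DP genes, 8 were lower and 1 higher, with a median log2 fold change of -0.79. *E2F1*, *E2F2* and *E2F8* had -1.29, -1.42 and -1.58, and *TFDP1*, the main dimer partner of the E2F proteins, had -0.97. *E2F5* was the higher one, at 0.94. Of 8 genes that act upstream of D-type cyclins or control their level, 4 were higher and 4 lower. *PIM1* and *PIM2*, kinases induced by STAT5, were higher at 1.17 and 0.88, as was *ETV6* at 0.38, and *MYB* was lower at -0.49.

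**Figure D5:**
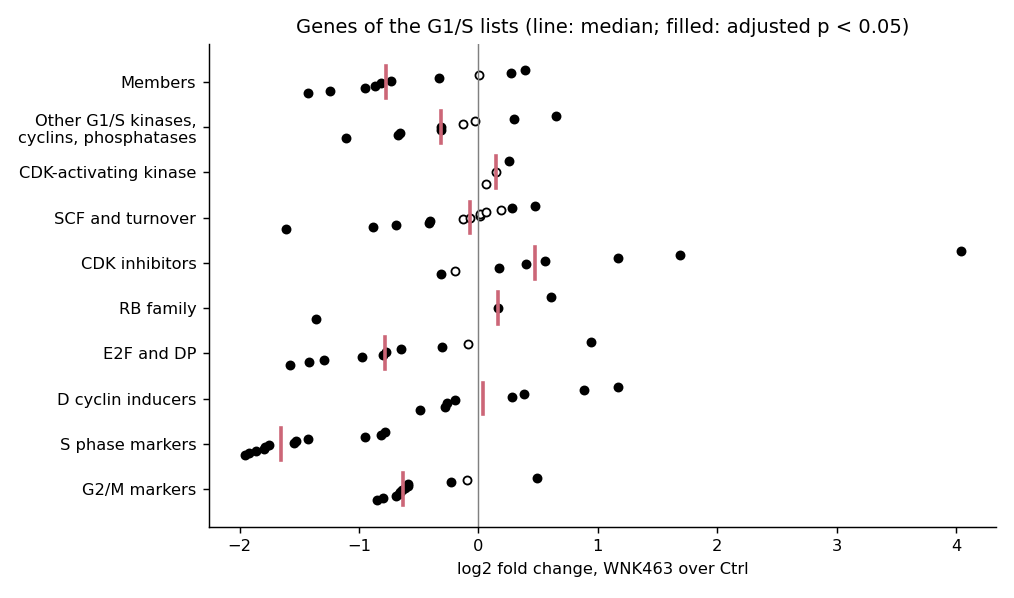
Log2 fold change (WNK463 over Ctrl) of each gene in the 10 genes studied, the 7 other G1/S lists and the S phase and G2/M markers, with filled points for genes that passed edgeR's test at 0.05 and a red line at each list's median. The members' median of -0.77 lies near that of the E2F and DP genes, -0.79, and the point farthest to the right is *CDKN1C*, which had 3 to 5 counts in the Ctrl samples.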

How the data were processed

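RNA-seq of 3 Ctrl and 3 WNK463 samples was analysed from 1 table. Per the labels' processing notes, fastp, Bowtie2, HISAT2, StringTie, RSEM, DESeq2 and edgeR and the build GRCh38 were used, with no roles or versions given. The deposited expected counts are estimates written as whole numbers per gene (62 values are 0 beside a TPM above 0), and the authors also deposited TPM values, which sum to 1000000 per sample. Their group means, fold changes, p-values and adjusted p-values were not used. All counts were 0 for 4605 genes.

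Counts were tested with edgeR 4.0.16 in R 4.3.3 (quasi-likelihood test, TMM, no block, genes of low counts removed by its default), and the standard error was taken as the size of the log2 change divided by the square root of F. The procedure was tested on simulated data. All 10 genes passed the filter. Replicates of a group differed by more than sampling noise (chi-square per degree of freedom from 2.68 to 7.40). Levels between genes used TPM, and single values were compared by exact two-sided permutation over samples. Alternatives were DESeq2 1.42.0, total-count scaling, other filters, a replicate block, limma 3.58.1 on log2(TPM + 1) and log2(TPM + 0.1), and leaving out each sample. Overlapping genes came from GENCODE 29 and promoters from RefSeq (GRCh38.p14), which had windows for 6 of the 10 genes, so none is shown for *CCND1*, *CCND2*, *CCNE2* and *CDK2*. Genes named are the 10 members, all genes of lists with up to 4 genes, and the 4 with smallest p of longer G1/S lists. Overlapping genes are named where they share at least 89 exonic bases with a member. Other genes overlap *CCND3*, *CDK4*, *CCNE2*, *SKP2*, *CKS1B* and *CKS2* with 24 shared exonic bases or fewer and are not named. Named beyond these rules are *CDK6*, *CDKN2A*, *E2F5*, *SKP1*, *MYC*, *CENPF*, *PECAM1* and the AML and myeloid markers. The members and lists were chosen with earlier results of these data known.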

Additional observations from a re-analysis of the deposited data

How the results depend on the processing

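For the 10 genes, 133 of 140 combinations of a gene and another setting kept the direction and the side of the threshold. *CCND1* lost its call with limma on log2(TPM + 0.1), at a log2 fold change of -0.60, and *CKS2*, which passed in none, turned to -0.0061 with DESeq2, to -0.012 without a filter, and ranged from -0.063 to 0.099 over the fits without one sample. *CCND2* reversed to -0.24 when summed with *AC008012.1*. With a fold limit, 0 of the 10 genes were higher and 2 lower in place of 2 and 7. Leaving out each sample kept 2 higher and 7 lower. Over all genes, 4222 were lower in the main edgeR fit. Limma gave 2698 on log2(TPM + 1), 2694 on log2(TPM + 0.1), and 2635 on log2(TPM + 1) without a filter. With the fold limit, these limma fits gave 265, 416 and 268 lower genes in place of 665. The edgeR fit with at least 10 counts in every sample gave 740 higher in place of 1152. With CPM in place of TPM, the shares of *CCND1*, *CCND2*, *CCND3* and *CDK4* changed by -0.741, -0.547, 1.29 and -13.5 percentage points, in place of -0.366, -0.175, 0.540 and -20.5. Over the leave-one-out values the *CCND2* share changed by between -0.304 and 0.0042. Same-numbered samples did not deviate together (correlations of 0.019, -0.0071 and -0.048), and the replicate block gave 7 lower and 2 higher of the 10 genes. The cause of these differences was not tested.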
